A study of Mus musculus with 3 samples.

Results

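The Toll-like receptor genes Tlr1, Tlr2, Tlr3, Tlr4, Tlr5, Tlr6, Tlr7, Tlr8, Tlr9 and Tlr13 were examined in macrophages sorted from the mouse colon. The 10 genes were taken by symbol from a list of 23997 genes, 1 row each, and were split by where the protein sits: 5 at the cell surface (Tlr1, Tlr2, Tlr4, Tlr5 and Tlr6) and 5 in endosomes (Tlr3, Tlr7, Tlr8, Tlr9 and Tlr13). The choice used names and not measured values. RNA was sequenced from Siglec-F-negative, Ly6C-low, CD64-positive cells of untreated male C57BL/6 mice, whose age the labels give as 9 weeks in the protocol and 8.9 weeks among the sample traits. WT mice carried Lyz2-Cre alone, Tle3cKO mice carried floxed Tle3 alleles with Lyz2-Cre, and Tle4cKO mice carried floxed Tle4 alleles with Lyz2-Cre, so that all 3 genotypes share the Cre transgene, which acts in myeloid cells. The cells of 4 WT mice made 1 pooled library, those of 3 Tle3cKO mice made another, and so did those of 4 Tle4cKO mice. There is therefore no replicate spread, no test and no error for any value below.

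Toll-like receptors are membrane proteins with a leucine-rich repeat ectodomain that binds microbial molecules and a cytoplasmic TIR domain that recruits adaptors. The surface receptors bind lipoproteins, lipopolysaccharide or flagellin, and the endosomal receptors bind nucleic acids. Signalling through MyD88 or TRIF ends in NF-kB, AP-1 and interferon regulatory factors, and resident macrophages of the intestine are known for weak cytokine responses to such ligands.

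Values are FPKM (fragments counted per kilobase of a transcript and per unit of library size), so levels can be set side by side between genes. Between libraries, such levels also depend on how much of each library the most abundant genes take up. Differences are log2 ratios of FPKM + 1, which understate differences of low genes. Values without names are in the order WT, library labelled Tle3cKO, Tle4cKO, and pairs of log2 ratios are those of the latter 2, called the cKO-labelled libraries, to WT in that order. The ratios were taken over the 11114 genes whose FPKM averaged 1 or more across the libraries. All 10 receptors passed that filter, Tlr3 only through the 2 cKO-labelled libraries. Total FPKM was between 569961 and 610714 per library, the sequencing depth is unknown, and the low values put the depth of the library labelled Tle3cKO at 0.969 and that of Tle4cKO at 1.21 times that of WT. The targeted genes were checked first: Tle3 was at 38.6 FPKM (WT), 70.7 (library labelled Tle3cKO) and 46.9 (Tle4cKO), so it was highest in the library where it was targeted. Tle4 was at 8.5 FPKM (WT), 11.0 (library labelled Tle3cKO) and 5.80 (Tle4cKO). A gene-level value need not fall when some exons are lost, but every direction below that involves the library labelled Tle3cKO rests on that label. The macrophage genes Csf1r (387 to 459 FPKM), C1qa (1093 to 1243) and Fcgr1, which encodes CD64 (33.3 to 39.2), were high in all 3 libraries. The lowest of the 12 macrophage markers were Cx3cr1 (7.64 to 11.4 FPKM) and Mertk (4.46 to 7.65). Mertk was lowest in WT, with log2 ratios of 0.66 and 0.39.

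Tlr7 and Tlr8 were the receptors furthest apart between the libraries, and both were highest in WT. Tlr7, which binds single-stranded RNA and guanosine, was at 61.8 FPKM (WT), 29.0 (library labelled Tle3cKO) and 24.0 (Tle4cKO). Tlr8, which also belongs to the receptors of single-stranded RNA breakdown products, was at 36.8 FPKM (WT), 11.2 (library labelled Tle3cKO) and 12.99 (Tle4cKO). The 2 cKO-labelled libraries were close to each other and both were far below WT. In FPKM, WT was 2.13 and 2.58 times the cKO-labelled libraries for Tlr7, and 3.28 and 2.83 times for Tlr8. The log2 ratios to WT were -1.07 (library labelled Tle3cKO) and -1.33 (Tle4cKO) for Tlr7, and -1.63 and -1.43 for Tlr8. Counted from the lowest of the 11114 log2 ratios, Tlr8 was at place 7 (library labelled Tle3cKO) and 16 (Tle4cKO), and Tlr7 at 21 and 23. Both comparisons use the same WT library, so a high value there lowers both ratios together. In a pool of cells, fewer cells of a type and less RNA per cell cannot be told apart.

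Each of the other 8 receptors stayed inside 1.5-fold. At least 2-fold lower than WT were 2 of 10 receptors in the library labelled Tle3cKO, where 0.207% of the 11114 genes were called lower, 0.216% higher and 0.423% in either direction. The same count held in Tle4cKO, against 0.486% of genes lower, 0.162% higher and 0.648% in either direction. At the 1.5-fold threshold the count was again 2 of 10 lower in each comparison, against 1.09% of genes lower and 2.68% in either direction for the library labelled Tle3cKO, and 1.7% and 2.91% for Tle4cKO. No receptor was higher by 1.5-fold in either, against 1.59% and 1.21% of genes. Between the cKO-labelled libraries 0 of 10 receptors passed 2-fold, against 0.522% of genes lower in Tle4cKO, 0.207% higher and 0.729% in either direction. Likewise 0 of 10 passed 1.5-fold, against 2.14% of genes lower, 0.891% higher and 3.03% in either direction. The log2 ratios of Tle4cKO to the library labelled Tle3cKO ran from -0.32 (Tlr2) to 0.19 (Tlr8).

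**Figure D1:**
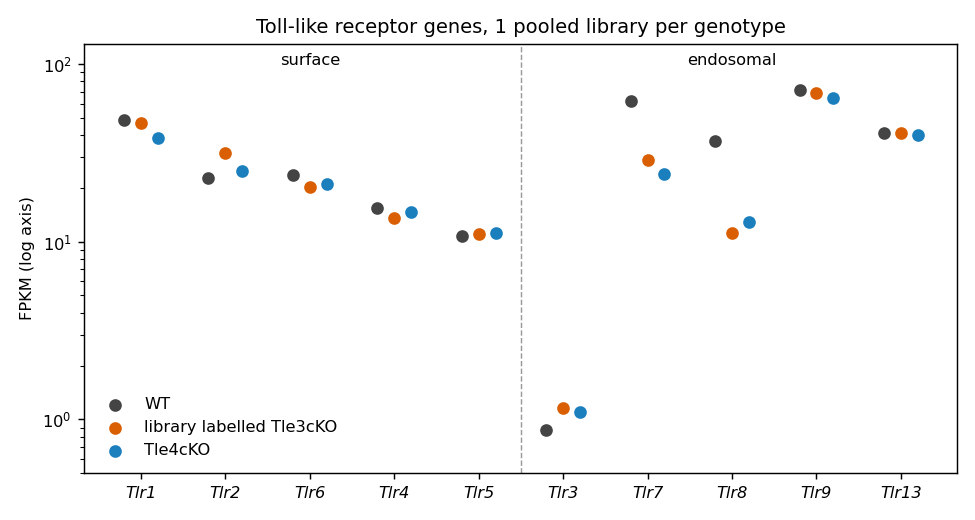
FPKM of each receptor gene on a log axis, 1 point per library, with the surface receptors on the left and the endosomal receptors on the right. WT (grey) stands above both cKO-labelled libraries (orange, the library labelled Tle3cKO; blue, Tle4cKO) for Tlr7 (61.8 against 29.0 and 24.0) and Tlr8 (36.8 against 11.2 and 12.99), while the 3 points of the other receptors lie close together.

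The levels of the family spanned a wide range, and the order of the receptors changed mainly through Tlr7 and Tlr8. In WT the order from high to low was Tlr9, Tlr7, Tlr1, Tlr13, Tlr8, Tlr6, Tlr2, Tlr4, Tlr5 and Tlr3. In both cKO-labelled libraries Tlr7 stood at place 5, below Tlr2, and Tlr8 at place 8, just above Tlr5. Without replicates, neighbours in this order cannot be called different. Among all 23997 genes ranked by FPKM, Tlr9 held place 1188 (WT), 1196 (library labelled Tle3cKO) and 1308 (Tle4cKO). Tlr7 held place 1360, 2676 and 3155 in the same libraries, and Tlr8 place 2232, 5322 and 4874.

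The endosomal receptors held most of the family's FPKM in every library. Their sum was 212 FPKM (WT), 151 (library labelled Tle3cKO) and 142 (Tle4cKO), which was 63.5%, 55.0% and 56.2% of the family. The sum of the surface receptors was 121, 123 and 111 FPKM. The gap between WT and the other libraries lay mainly in the endosomal class, and within it in the pair Tlr7 and Tlr8, whose sum was 98.6, 40.2 and 36.9 FPKM. The 3 other endosomal receptors together were at 113, 111 and 106 FPKM. The pair made up 46.6% of the endosomal sum (WT), 26.6% (library labelled Tle3cKO) and 25.9% (Tle4cKO). The median log2 ratio to WT was -0.04 for the surface and -0.05 for the endosomal receptors in the library labelled Tle3cKO, and -0.07 and -0.15 in Tle4cKO. The medians over all 11114 genes were -0.01 and -0.0026. The endosomal medians rest on Tlr3, which passed the filter only through its higher values outside WT. With a filter at a mean of 5 FPKM, which drops Tlr3, the endosomal medians were -0.56 and -0.74, the latter also when the library labelled Tle3cKO was left out of the filter.

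Tlr9, the endosomal receptor for DNA with unmethylated CpG, had the highest level of the family in all 3 libraries, at 71.3 FPKM (WT), 68.6 (library labelled Tle3cKO) and 64.3 (Tle4cKO). Tlr13, a mouse receptor for bacterial ribosomal RNA, was the flattest, at 40.9, 41.0 and 40.1 FPKM. Their log2 ratios to WT were -0.05 and -0.15 for Tlr9, and 0.0050 and -0.03 for Tlr13. Both are endosomal nucleic acid receptors like Tlr7 and Tlr8 and showed none of the gap seen for that pair. Tlr3, the receptor for double-stranded RNA, was barely present, at 0.873 FPKM (WT), 1.16 (library labelled Tle3cKO) and 1.11 (Tle4cKO), which was 0.262%, 0.424% and 0.437% of the family. Its log2 ratios were 0.21 and 0.17.

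Tlr2, which binds lipoproteins as a dimer with TLR1 or TLR6, had the highest log2 ratio of the surface receptors in each cKO-labelled library. It was at 22.9 FPKM (WT), 31.6 (library labelled Tle3cKO) and 25.2 (Tle4cKO). The log2 ratio of 0.45 in the library labelled Tle3cKO was the highest of the family and place 367 from the top of 11114 genes, inside the range of -0.44 to 0.49 that held the middle 95% of all genes in that comparison. In Tle4cKO the log2 ratio was 0.13. Tlr1 was at 48.4 FPKM (WT), 47.0 (library labelled Tle3cKO) and 38.7 (Tle4cKO), so that the lower value was found in Tle4cKO, with a log2 ratio of -0.32. Tlr6 was at 23.6, 20.3 and 21.1 FPKM, with log2 ratios of -0.21 and -0.15. Tlr1 exceeded Tlr6 in each library, by 2.05, 2.31 and 1.83 times. Tlr4, the lipopolysaccharide receptor, was at 15.6 FPKM (WT), 13.5 (library labelled Tle3cKO) and 14.7 (Tle4cKO). Tlr5, the flagellin receptor, was at 10.9, 11.0 and 11.2 FPKM, the smallest spread among the surface receptors.

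**Figure D2:**
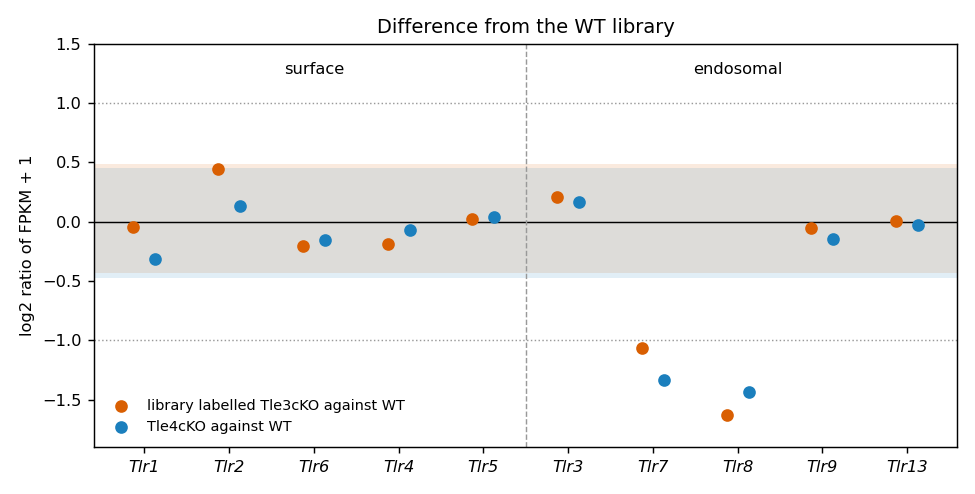
Log2 ratio of FPKM + 1 to WT for each receptor, orange (library labelled Tle3cKO) and blue (Tle4cKO). The shaded bands hold the middle 95% of all 11114 genes in each comparison (-0.44 to 0.49 and -0.48 to 0.45), the dotted lines mark 2-fold, and only Tlr7 and Tlr8 lie outside the bands and past the lower line.

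The values of Tlr1 and Tlr6 are less sure than the others because the genes lie 18.5 kb apart on chromosome 5 and share sequence. Of all 50-base stretches in the annotated transcripts, 15.4% of those of Tlr1 (512 of 3332) and 12.3% of those of Tlr6 (456 of 3702) also occurred in another gene. The other genes that shared the most were Tlr6, Nfkb1 and 9530046B11Rik for Tlr1, and Tlr1 and Ctsq for Tlr6. Reads from such stretches are divided between the genes by estimation. Tlr4 shared 1 such stretch and the other 7 receptors, Tlr7 and Tlr8 included, shared none. The longest identical run of the coding sequences was 229 bases, bases 1468 to 1696 of the 2385 coding bases of Tlr1 and bases 1507 to 1735 of the 2418 of Tlr6, and is shown because a read lying wholly inside it fits both genes.

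Tlr1 and Tlr6 shared run: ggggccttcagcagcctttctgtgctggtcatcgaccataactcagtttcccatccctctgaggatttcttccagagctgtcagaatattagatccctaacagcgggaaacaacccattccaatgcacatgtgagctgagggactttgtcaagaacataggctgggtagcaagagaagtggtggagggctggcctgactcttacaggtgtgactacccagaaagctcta

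In the annotation of build mm10, Tlr7 (ENSMUSG00000044583.13) lies at chrX:167304929-167330558 and Tlr8 (ENSMUSG00000040522.5) at chrX:167242696-167264329, both on the minus strand and 40.6 kb apart near the distal end of the X chromosome. Tlr7 has 3 exons with the coding sequence in exons 2 and 3, and Tlr8 has 2 exons, both with coding sequence. Tlr13 (ENSMUSG00000033777.4, chrX:106143204-106160493, plus strand) is on the same chromosome, in a different region. Tlr9 (ENSMUSG00000045322.10, chr9:106222598-106226883), Tlr2 (ENSMUSG00000027995.10, chr3:83836272-83841767), Tlr4 (ENSMUSG00000039005.13, chr4:66827584-66930284), Tlr5 (ENSMUSG00000079164.8, chr1:182954788-182976044) and Tlr3 (ENSMUSG00000031639.12, chr8:45395665-45411080) lie on other chromosomes, and Tlr1 (ENSMUSG00000044827.10) and Tlr6 (ENSMUSG00000051498.6) at chr5:64924679-64933563 and chr5:64952031-64960097.

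The genes beside Tlr7 and Tlr8 were lower in the cKO-labelled libraries too. Within 500 kb of the pair, 2 other genes passed the filter. Tmsb4x, which encodes the actin-binding peptide thymosin beta-4 and lies 33.4 kb from Tlr8, was at 17707 FPKM (WT), 7563 (library labelled Tle3cKO) and 8520 (Tle4cKO). Prps2, a phosphoribosyl pyrophosphate synthetase 15.8 kb from Tlr7, was at 5.39, 2.98 and 3.10 FPKM. Both genes were past 1.5-fold in both comparisons, with log2 ratios to WT of -1.23 and -1.06 for Tmsb4x and -0.68 and -0.64 for Prps2. Around the other 8 receptors, 42 genes were tested, each counted once. Past 1.5-fold were 0 of them (library labelled Tle3cKO) and 1 (Tle4cKO), Sorbs2 near Tlr3, at 1.84 FPKM (WT), 1.60 (library labelled Tle3cKO) and 0.665 (Tle4cKO). Over all tested genes, 2.68% and 2.91% were past 1.5-fold in either direction, so 0 and 1 of 42 are near the share of all genes.

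The lower values ran on from Tmsb4x to the last X chromosome gene that passed the filter, except for Mid1 in the library labelled Tle3cKO. This stretch was chosen after the values had been seen, so its counts are a description. It holds 9 genes that passed the filter. Next to Tmsb4x, Tlr8, Tlr7 and Prps2 these are Msl3, a subunit of a histone acetyltransferase complex, Arhgap6, a GTPase-activating protein, Hccs, which attaches heme to cytochrome c, the ubiquitin ligase gene Mid1, and G530011O06Rik, which the files place at the same position as Mid1. Hccs was at 42.0 FPKM (WT), 23.8 (library labelled Tle3cKO) and 20.97 (Tle4cKO). Msl3 was at 15.6, 9.59 and 8.43 FPKM, and Arhgap6 at 10.3, 4.41 and 5.89. G530011O06Rik was at 52.4, 26.1 and 23.0 FPKM. Past 1.5-fold lower were 8 of the 9 in the library labelled Tle3cKO and 9 of 9 in Tle4cKO. The exception, Mid1, was at 41.1 FPKM (WT), 49.5 (library labelled Tle3cKO) and 20.6 (Tle4cKO). Its overlap with G530011O06Rik makes the split of reads between them uncertain.

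WT was a median of 2.01 times the library labelled Tle3cKO and 2.002 times Tle4cKO over the 9 genes. Leaving out both receptors, the 7 others had a median of 1.81 times (from 0.830 for Mid1 to 2.34 for Tmsb4x) and 1.99 times (from 1.74 to 2.28). Tlr7 at 2.13 times was inside the first range and at 2.58 times above the second, and Tlr8 at 3.28 and 2.83 times was above all 7 in both comparisons. On the other side of Tmsb4x most values did not show this. Of the 10 nearest genes tested there, 0 were past 1.5-fold lower in the library labelled Tle3cKO, and 1 was in Tle4cKO. That gene, Gpm6b, a membrane protein of neurons and glia, was at 7.09, 8.27 and 2.85 FPKM, beside glial markers that were also lowest in Tle4cKO. Rab9, the gene nearest to Tmsb4x and a small GTPase of endosome transport, was at 21.1 FPKM (WT), 22.03 (library labelled Tle3cKO) and 23.7 (Tle4cKO). Over the 314 other X chromosome genes tested, the median log2 ratio to WT was -0.01 in both cKO-labelled libraries, and 1 and 8 of them were past 1.5-fold lower. The shares over all tested genes were 1.09% and 1.7%. Whether the values of Tlr7 and Tlr8 belong to the receptors or to their chromosome region cannot be told apart in these 3 libraries.

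**Figure D3:**
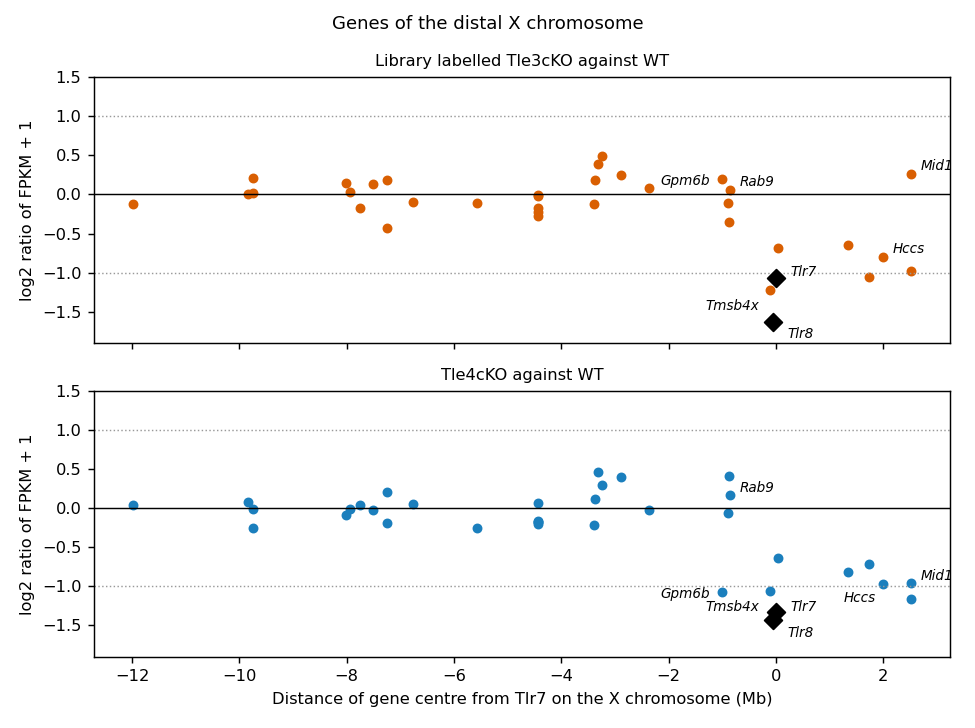
Log2 ratio of FPKM + 1 to WT for each gene of the last part of the X chromosome, by distance of the gene's centre from Tlr7 in Mb, with the library labelled Tle3cKO above and Tle4cKO below. Tlr7 and Tlr8 are black diamonds, the dotted lines mark 2-fold, and from Tmsb4x onward 8 of 9 genes above and 9 of 9 below lie past 1.5-fold lower, whereas Rab9 lies at 0.06 and 0.16.

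By distance over the log2 ratios to WT, the genes nearest to Tlr8 among the 11114 were Ccl17, Erp27 and Sirpb1a. Ccl17, a chemokine of dendritic cells and macrophages, was at 145 FPKM (WT), 47.5 (library labelled Tle3cKO) and 68.2 (Tle4cKO), a distance of 0.36. Erp27, an endoplasmic reticulum protein, was at 3.36, 0.824 and 0.730 FPKM, a distance of 0.39. Sirpb1a, a signal-regulatory receptor, was at 10.6, 3.98 and 3.47 FPKM, a distance of 0.41. None of the 3 is on the X chromosome. The next genes were Tmsb4x (0.55) and Tlr7 (0.57). The measure rests on 3 libraries and describes only them.

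RefSeq promoters on GRCm38.p6, the build also called mm10, were searched in the 250 bases before each start for short motifs on both strands. The motifs were a PU.1 core (GAGGAA), an NF-kB core (GGG, any 5 bases, CC) and an interferon-stimulated response element core (GAAA, any 2 bases, GAAA). Of all 32851 promoters in the table, 23.3%, 45.8% and 2.98% hold them. Entries were found for 8 of the 10 receptors, all but Tlr4 and Tlr7. The PU.1 core, named after the transcription factor that specifies macrophages, was found before Tlr8, Tlr9, Tlr13 and at 1 of the starts of Tlr1. The promoters below are shown because they set Tlr8, which differed between the libraries, beside 2 flat endosomal receptors and beside its neighbour Tmsb4x. Capitals mark the PU.1 core.

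Tlr8 promoter (chrX:167264330-167264579, - strand): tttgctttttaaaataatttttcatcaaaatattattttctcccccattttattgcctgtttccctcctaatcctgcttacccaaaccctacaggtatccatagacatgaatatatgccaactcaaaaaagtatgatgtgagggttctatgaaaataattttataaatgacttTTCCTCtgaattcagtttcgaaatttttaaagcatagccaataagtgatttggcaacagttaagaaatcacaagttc
Tlr9 promoter (chr9:106222348-106222597, + strand): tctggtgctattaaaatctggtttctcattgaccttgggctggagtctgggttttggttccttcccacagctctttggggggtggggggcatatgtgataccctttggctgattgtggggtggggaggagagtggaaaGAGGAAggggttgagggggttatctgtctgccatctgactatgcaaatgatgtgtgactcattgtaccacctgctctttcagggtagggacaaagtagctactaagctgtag
Tlr13 promoter (chrX:106143025-106143274, + strand): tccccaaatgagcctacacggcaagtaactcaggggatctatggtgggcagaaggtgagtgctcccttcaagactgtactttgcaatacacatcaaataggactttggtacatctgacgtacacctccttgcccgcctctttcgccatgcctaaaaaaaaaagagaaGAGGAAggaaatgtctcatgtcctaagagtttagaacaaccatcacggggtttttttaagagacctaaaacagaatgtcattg
Tmsb4x promoter (chrX:167209219-167209468, - strand): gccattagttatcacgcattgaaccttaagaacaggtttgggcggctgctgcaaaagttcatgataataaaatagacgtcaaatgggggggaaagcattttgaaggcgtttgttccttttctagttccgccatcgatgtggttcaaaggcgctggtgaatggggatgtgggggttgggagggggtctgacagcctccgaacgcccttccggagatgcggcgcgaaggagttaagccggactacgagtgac

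The core begins 77 bases before the start in Tlr8, 112 in Tlr9 and 83 in Tlr13, and the Tmsb4x window holds none of the 3 motifs. The PU.1 core was thus present before a receptor that differed and before receptors that did not. The NF-kB core was found before Tlr2, Tlr3, Tlr5 and 1 start of Tlr6, and the interferon-stimulated response element core before another start of Tlr6. A match is only a match of letters.

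By log2 ratio to WT, none of the tested genes on the pathway and cytosolic receptor lists passed 2-fold, as Tlr7 and Tlr8 did. Il12b, a low gene whose ratio is understated, came close in the library labelled Tle3cKO, at -0.96 against -1.07 for Tlr7. The lists of partners, adaptors, kinases, transcription factors, negative regulators, targets and cytosolic receptors held 118 genes that passed the filter. Past 1.5-fold lower were 4 of the 118 in the library labelled Tle3cKO (Irf7, Ccl5, Il12b and Zbp1) and 3 in Tle4cKO (Irf7, Ccl5 and Nod1), where 1.09% and 1.7% of all genes were. Past 1.5-fold higher were 0 of the 118 in either, against 1.59% and 1.21% of all genes. The medians of the 118 were -0.07 and -0.10. When the libraries were scaled to equal totals, the all-gene median of the library labelled Tle3cKO was 0.08 in place of -0.01, so its list medians within that step of 0 have no sure sign. Between the cKO-labelled libraries Il12b alone passed 1.5-fold, at a log2 ratio of 1.02.

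Among co-receptors, Cd14, which hands lipopolysaccharide to TLR4, was at 1302 FPKM (WT), 1266 (library labelled Tle3cKO) and 1403 (Tle4cKO). Cd36, a scavenger receptor that assists TLR2 with TLR6, was at 190.3, 172 and 181 FPKM. Both were above the level of every receptor and close between libraries. Ly96, which encodes the TLR4 partner MD-2, was at 29.0 FPKM (WT), 34.5 (library labelled Tle3cKO) and 30.1 (Tle4cKO). The related pair Cd180 and Ly86 was lower in the library labelled Tle3cKO, with log2 ratios of -0.30 and -0.40, and at -0.20 and -0.12 in Tle4cKO. The 6 genes tested had median log2 ratios to WT of -0.09 and -0.01.

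Endosomal receptors leave the endoplasmic reticulum with UNC93B1 and are then cleaved by proteases. Unc93b1, named here for that role after its values were seen, was at 387 FPKM (WT), 322 (library labelled Tle3cKO) and 348 (Tle4cKO), log2 ratios of -0.27 and -0.15. The proteases Ctss (1469, 1212 and 1275 FPKM), Lgmn (1075, 949 and 1036) and Ctsb (963, 943 and 1016) were the highest of the 14 genes of folding, trafficking and cleavage. Ctsl had the highest log2 ratio of the list in the library labelled Tle3cKO, 0.47, and was at 0.12 in Tle4cKO. Cnpy4, a chaperone for the surface receptors, was lowest of the list in Tle4cKO, at -0.45, and was at -0.24 in the library labelled Tle3cKO. The list's medians were -0.11 and -0.04. Another list held 6 tested nucleases and phospholipases that process nucleic acids. Of these, Pld4, a single-strand exonuclease, was at 171 FPKM (WT), 121 (library labelled Tle3cKO) and 128 (Tle4cKO). Its log2 ratios were -0.50 and -0.42. Dnase1l3 (218.5, 208 and 214 FPKM), Rnaset2b (96.1, 90.75 and 102), Pld3 (87.5, 86.6 and 97.5) and Dnase2a (40.2, 34.7 and 42.3) were close between libraries.

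Myd88, the adaptor of nearly the whole family, was at 37.2 FPKM (WT), 32.3 (library labelled Tle3cKO) and 32.0 (Tle4cKO). Ticam1, which encodes TRIF, the adaptor of TLR3 and of internalised TLR4, was at 14.6, 15.2 and 19.7 FPKM, highest in Tle4cKO with a log2 ratio to WT of 0.41. Scimp, a transmembrane adaptor of TLR4 signalling, was also highest there, at 18.5 FPKM against 14.5 for WT and 13 for the library labelled Tle3cKO. Pik3ap1 was the most abundant of the adaptors, at 178, 184 and 183 FPKM. The 6 adaptors tested had median log2 ratios of 0.05 and 0.20. The 19 kinases and ubiquitin ligases ranged from -0.31 (Irak4) to 0.12 in the library labelled Tle3cKO and from -0.20 (Traf3) to 0.15 in Tle4cKO, with medians of -0.06 in both. Irak4, the first kinase of the MyD88 complex, was at 14.7, 11.7 and 12.9 FPKM.

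Irf7, the interferon regulatory factor through which TLR7 and TLR9 induce type I interferon and itself an interferon-induced gene, was the transcription factor that differed most. It was at 37.0 FPKM (WT), 21.4 (library labelled Tle3cKO) and 21.7 (Tle4cKO), log2 ratios of -0.76 and -0.74. Irf5, which also acts below MyD88, was at 175, 165 and 195 FPKM, and Irf8 at 136, 119 and 148. Nfkb1, a subunit of NF-kB, was at 197, 161 and 162 FPKM. Fos was at 343, 329 and 295 FPKM and Atf3 at 173, 169 and 139. The 14 factors had medians of -0.09 and -0.18. The 19 negative regulators had medians of 0.01 and -0.07. Sigirr, an inhibitory receptor of the family's TIR signalling, was at 1.55, 2.25 and 2.14 FPKM, and Irak3, an inhibitory kinase relative, at 4.25, 5.52 and 4.79, while Nfkbia (248, 242 and 210), Dusp1 (246, 214 and 209) and Lyn (174, 164 and 171) were the most abundant.

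Of the 19 target genes of the receptors that were tested, 2 were past 1.5-fold lower (library labelled Tle3cKO) and 1 was (Tle4cKO), while 0 were past it higher in either. Over all tested genes, 1.09% and 1.7% were past it lower, and 1.59% and 1.21% higher. Ccl5, a chemokine induced through interferon regulatory factors, was at 283 FPKM (WT), 154 (library labelled Tle3cKO) and 173 (Tle4cKO), log2 ratios of -0.88 and -0.71. Il12b, the shared subunit of IL-12 and IL-23, was at 4.61, 1.88 and 4.83 FPKM, so that the library labelled Tle3cKO stood alone. Cxcl1, a neutrophil chemokine, was highest in that library, at 411 FPKM against 298 in WT and 274 in Tle4cKO. Cxcl2 was at 1205, 1456 and 1168 FPKM, and Il1b at 815, 667 and 600.3. The 19 targets had medians of -0.11 and -0.21.

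The list of cytosolic receptors also holds genes downstream of them, such as Ripk2, Pycard and Mavs. It had the lowest median of the pathway lists in the library labelled Tle3cKO, at -0.25. For Tle4cKO the median was -0.18. The list holds 15 genes. Zbp1, a sensor of Z-form nucleic acid, was at 16.6 FPKM (WT), 10.6 (library labelled Tle3cKO) and 13.04 (Tle4cKO). Nod1 and Nod2, sensors of peptidoglycan fragments, were at 7.22, 5.16 and 4.18 FPKM and at 18.3, 13.3 and 14.2 FPKM. Nlrp3, which forms an inflammasome, was the most abundant, at 127, 135 and 118 FPKM.

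**Figure D4:**
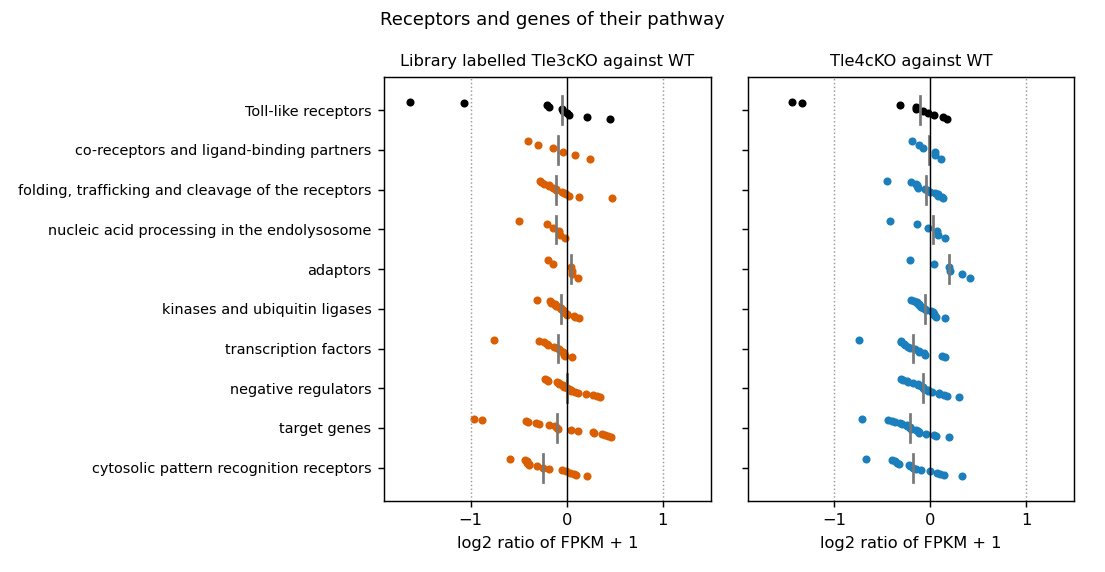
Log2 ratio of FPKM + 1 to WT for the 10 receptors (black) and the 118 genes of the pathway and cytosolic receptor lists, 1 point per gene, with the grey bar at each list's median and dotted lines at 2-fold. Tlr7 and Tlr8 are the only points past the lower 2-fold line in either panel, and no point passes the upper one.

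Genes of other cells that a colon sort can hold were measured beside the receptors. Plasmacytoid dendritic cells, which are rich in Tlr7 and Tlr9, had a summed marker level of 31.9 FPKM (WT), 33.8 (library labelled Tle3cKO) and 39.3 (Tle4cKO) over 8 genes. Its defining marker Siglech was at 7.10, 7.69 and 6.30 FPKM, Tcf4 at 11.5, 12.3 and 10.2, and Ly6d at 7.70, 8.13 and 13.03. The 10 B and plasma cell markers measured, from cells that also carry Tlr7 and Tlr9, summed to 154, 207 and 357 FPKM. The high sum in Tle4cKO came largely from Igj, at 46.9, 57.9 and 192 FPKM. By log2 ratio to WT, all 10 were higher in each cKO-labelled library. The 6 monocyte markers summed to 199, 183 and 202 FPKM. Among them Ly6c2 was at 9.38, 5.98 and 6.52 FPKM and thus highest in WT. The part of any of these cells in the values of Tlr7 and Tlr8 was not tested. The 10 conventional dendritic cell markers summed to 444, 371 and 470 FPKM, of which Ccr7 held the largest part, at 305, 216 and 316. By log2 ratio to WT, 4 of these 10 were higher and 6 lower in the library labelled Tle3cKO. The 10 T and natural killer cell markers measured summed to 413, 421 and 400 FPKM. Most of that sum came from Il7r (337, 342 and 332) and Cd4 (71.8, 72.8 and 62.5), while Cd3e was at 0.401, 1.55 and 1.70 FPKM. The 12 markers of stroma, endothelium and muscle summed to 248.8, 297 and 281 FPKM. The 12 macrophage markers summed to 5277, 4715 and 4919 FPKM, with Emr1, the gene of F4/80, at 150, 143 and 147. The 9 neutrophil markers measured summed to 172 to 176 FPKM with Camp listed at 0 in all libraries, and the 5 eosinophil markers to 3.48 to 4.11 FPKM with Epx listed at 0. Epithelial markers summed to 4.31, 9.93 and 47.8 FPKM and glial markers to 34.7, 33.9 and 11.9 FPKM.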

How the data were processed

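RNA-seq libraries of sorted colonic macrophages, 1 per genotype, were grouped by sample title. The authors deposited FPKM per gene, per the file headers, in tables of the same 23997 rows, of which 104 join several symbols. Per the submitters' processing notes, TopHat2 2.1.0, Cufflinks 2.2.1 and build mm10 were used. Pooling by genotype and a single sorting session are stated per the labels' protocols. Read number, read length and strandedness are not stated in the sources used here, so overlapping and antisense genes cannot be separated, and Cufflinks divides reads of similar genes by estimation.

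From these values log2 ratios of FPKM plus a pseudocount of 1 were computed for 3 comparisons over the 11114 genes whose FPKM averaged 1 or more, and genes past 2-fold and 1.5-fold were counted. Single libraries allow no test, and fold rules describe these libraries only. Relative depth came from the steps of values under 0.3 FPKM (1846 and 1952 genes). Identifiers, coordinates and 50-base comparisons used GENCODE M21 on mm10, where 22622 symbols (94.3%) were found. Members, gene lists and settings were chosen with earlier results of these data known. Genes were named by a rule: all members, Tle3 and Tle4, from each pathway list the 3 most abundant genes, up to 3 of largest log2 ratio and any past 2-fold, the 3 genes nearest to the receptor of largest log2 ratio, and neighbours within 500 kb past 1.5-fold. Genes of the distal X chromosome and Unc93b1 were named after their values were seen, and not every gene the rule takes is described. Other settings were pseudocounts of 0.1 and 5, no filter, a filter at 5 FPKM, equal totals, equal upper quartiles, median ratios and a 1.5-fold threshold. Scripts used numpy 2.4.6, matplotlib 3.10.9 and pandas 2.3.3 under Python 3.11.15.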

Additional observations from a re-analysis of the deposited data

How the results depend on the processing

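Tlr7 and Tlr8, the receptors past 1.5-fold, kept their direction under every setting tried, but none of these settings could have turned it. A pseudocount or a filter cannot change the sign of a ratio, and the scale factors of the libraries lay between 0.971 and 1.04. Over all scalings, pseudocounts and filters the log2 ratio to WT ran from -1.09 to -0.97 (library labelled Tle3cKO) and from -1.36 to -1.21 (Tle4cKO) for Tlr7, and from -1.71 to -1.37 and from -1.50 to -1.22 for Tlr8. With a pseudocount of 5, and with equal totals, 1 receptor (Tlr8) in place of 2 was at least 2-fold different in the library labelled Tle3cKO. Signs of ratios near 0 turned for Tlr1 and Tlr9 (library labelled Tle3cKO to WT), Tlr13 (Tle4cKO to WT), and Tlr5 and Tlr6 (between the cKO-labelled libraries), and equal totals moved the median of all genes in the library labelled Tle3cKO from -0.01 to 0.08. No paired analysis was possible because each genotype has 1 library, and for the same reason no library could be left out of a group. The sequencing depth is unknown, which limits Tlr3 most.

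The median of the endosomal receptors depended on which members entered. With a filter at 5 FPKM, which drops Tlr3, it was -0.56 (library labelled Tle3cKO) and -0.74 (Tle4cKO), where it was also -0.74 when the filter left the library labelled Tle3cKO out. Without Tlr7 and Tlr8, settings added after seeing the data, it was -0.026 in Tle4cKO, and the endosomal sums were 113, 111 and 106 FPKM (WT, library labelled Tle3cKO, Tle4cKO). The median of Tmsb4x and Prps2 (-0.95 and -0.85) came to -0.80 and -0.71 at a pseudocount of 5, and to -1.23 and -1.06 with the filter at 5 FPKM, which leaves Tmsb4x.

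Counts of all genes past 2-fold moved too. In the library labelled Tle3cKO 24 were higher and 23 lower than WT, against 90 and 60 with a pseudocount of 0.1, 7 and 10 with 5, and 11 and 14 with the filter at 5 FPKM; equal totals gave 40 higher and no filter 35 lower. In Tle4cKO 18 were higher and 54 lower, against 55 and 104, 7 and 15, and 6 and 23 under the same settings, with 32 higher without a filter. Between the cKO-labelled libraries 23 were higher and 58 lower in Tle4cKO, against 50 and 145, 9 and 12, and 11 and 28, with 40 higher without a filter.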

Other observations

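The mouse has other Toll-like receptors that the family described here leaves out. Tlr12, which with TLR11 recognises profilin of protozoa, was at 14.8 FPKM (WT), 13.4 (library labelled Tle3cKO) and 15.8 (Tle4cKO), log2 ratios to WT of -0.13 and 0.09. Its level was close to that of Tlr4. Tlr11 was at 0.832, 0.621 and 0.965 FPKM and did not reach a mean of 1 FPKM. Tmsb4x alone held 2.90% of all FPKM (WT), 1.33% (library labelled Tle3cKO) and 1.42% (Tle4cKO).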
